A study of Mus musculus with 24 samples.

Results

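The region described here runs from UGA1, the first selenocysteine codon of Selenop, through the codons that follow it. It comprises nucleotides 329 to 544 of the Selenop mRNA, which are 216 of the 2096 positions measured and codons 59 to 130 of the reading frame. The region was chosen by position in the frame, and the frame was chosen by the counts themselves: the initiation peak of the wild type libraries, nucleotide 158, placed the start codon at nucleotides 155 to 157 and codon 59 at nucleotides 329 to 331. Each position holds A-site counts, the number of ribosome footprints whose A site, where the incoming aminoacyl-tRNA is read, was assigned to that nucleotide. Counts of 3 positions were summed per codon, and occupancy is the count of a codon divided by the mean count per codon of codons 7 to 53 (nucleotides 173 to 313), the upstream part, in the same library.

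Selenocysteine is inserted at UGA, which elsewhere ends translation, when a stem-loop of the 3′UTR, the SECIS element, recruits the selenocysteine tRNA and its elongation factor through a SECIS-binding protein. Selenop encodes the plasma protein that carries selenium from the liver to other tissues. Its mRNA is unusual in holding several UGA codons that are read as selenocysteine, an early UGA that stands alone and a cluster near the end of the frame, and a pair of SECIS elements, SECIS1 and SECIS2. A ribosome that arrives at UGA1 may insert selenocysteine and go on, or terminate there. Footprints after UGA1 are taken here to come from ribosomes that passed it. The counts do not show which amino acid was inserted.

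The study profiled livers of C57Bl6 mice fed standard chow, in a line with a genomic deletion of SECIS1 and a line with a genomic deletion of SECIS2. The labelled groups were SECIS1 deletion (2 libraries, numbered 2 and 3), SECIS1 WT (3), SECIS2 deletion (3) and SECIS2 WT (3), and 1 further library, whose title names no group, stayed out of every comparison. The labels give neither the ends of the deletions nor how they were made or their zygosity. Sample numbers of the lines have different stems, so the line and whatever the stem stands for cannot be told apart. Nothing states that the libraries of a group are from different animals, so the p-values describe sample-to-sample spread that could be technical.

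The libraries held 17585 to 66070 counts on the Selenop mRNA, 1897 to 13516 of them upstream and 2463 to 13623 in codons 59 to 130. SECIS2 WT replicate 2 was the shallowest in all but the last measure. As a check of the labels, counts after codon 378, the last covered codon, were 23 and 44 in the SECIS1 deletion libraries, against 10797 to 21201 in SECIS1 WT. They were 4142 to 5955 in the SECIS2 deletion libraries, against 1540 to 19467 in SECIS2 WT, so the groups of the SECIS2 line overlapped there. The library left out of the comparisons had 43 such counts, close to the SECIS1 deletion libraries. Liver marker genes were not analysed here, since the tables hold Selenop alone.

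The pattern of occupancy along the region was much the same in all libraries. Of 72 codons, 53 had a count in every grouped library and none was empty throughout, while 7 of the 216 positions had no count in any of the 11 libraries. Across the 72 codons, Spearman's rho between pairs of libraries ran from 0.884 to 0.973 over 55 pairs, with a median of 0.931. This is a description, since counts of neighbouring codons may not be independent and the libraries share the mRNA. Counts were concentrated in few codons: 13 codons had a mean occupancy above 1 and 31 had one under 0.1.

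Codon 74, 15 codons after UGA1, had the highest occupancy of the region in each of the 11 libraries. It stood at 9.95, 6.69 and 6.68 in the SECIS2 deletion libraries, against 21.4, 14.0 and 14.3 in SECIS2 WT, and at 9.86 and 13.4 in SECIS1 deletion, against 8.06, 12.4 and 7.24 in SECIS1 WT. After it came codons 71, 121, 129, 63, 73, 120, 66, 67 and 128 by mean occupancy. These 10 codons held 75.5% ± 3.98 of the region's counts in SECIS2 deletion and 72.3% ± 5.0 in SECIS2 WT (SD, n = 3 each), and 71.1% ± 2.22 in SECIS1 deletion (n = 2) and 67.4% ± 3.29 in SECIS1 WT (n = 3). The high codons lay in a group at codons 63 to 74 and another at codons 120 to 129.

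Between these groups lay a stretch of low occupancy. Codons 82 to 110, bounds chosen after the values were seen, are 29 of the 72 codons and held 2.86% ± 0.391 of the region's counts in SECIS2 deletion and 4.18% ± 0.764 in SECIS2 WT (SD, n = 3 each). The same codons held 3.86% ± 0.132 in SECIS1 deletion (n = 2) and 4.67% ± 0.857 in SECIS1 WT (n = 3). The stretch carried 66 to 138 counts per SECIS2 deletion library and 148 to 353 per SECIS2 WT library, so single codons there rest on few footprints.

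**Figure D1:**
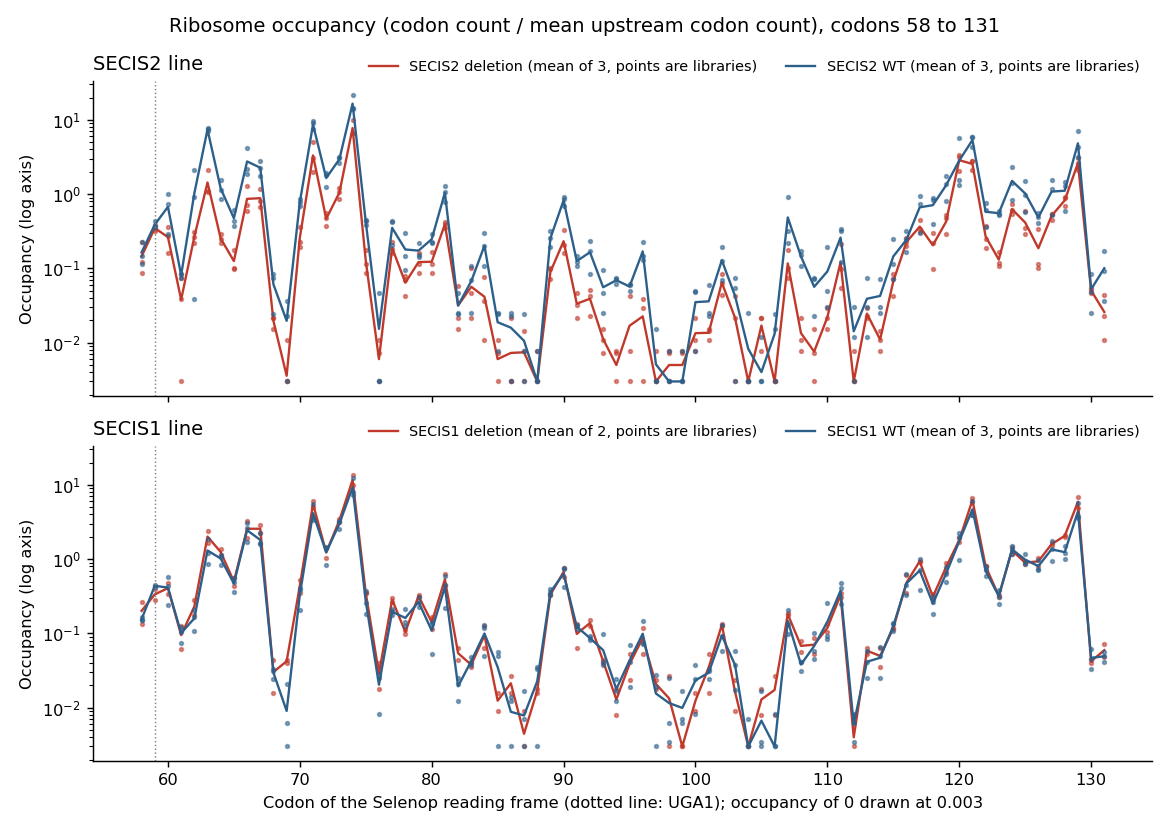
Occupancy of codons 58 to 131 (codon count over mean upstream codon count, log axis) in the SECIS2 line above and the SECIS1 line, with points for libraries, lines for group means and values of 0 drawn at 0.003. The peaks at codons 71, 74, 121 and 129 recur in all groups, while codon 63 is high mainly in SECIS2 WT. The SECIS2 deletion runs lower than SECIS2 WT, while the groups of the SECIS1 line lie close together.

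In each library the first nucleotide of codons held the most counts of the region. The first nucleotide of codons held 52.8% ± 1.62 of the region's counts in SECIS2 deletion and 57.7% ± 4.14 in SECIS2 WT (SD, n = 3 each), and 56.2% ± 1.82 in SECIS1 deletion (n = 2) and 54.2% ± 2.59 in SECIS1 WT (n = 3). The second nucleotide held 37.0% ± 0.854, 31.8% ± 3.86, 34.6% ± 3.28 and 37.9% ± 1.92 in the same 4 groups. Frame shares upstream of UGA1 were of similar size, with 59.9% ± 2.70 in the first nucleotide in SECIS2 deletion and 58.9% ± 9.77 in SECIS2 WT. In SECIS1 WT replicate 1 the first nucleotide held 47.8% of upstream counts, and in the other libraries of the SECIS1 line 55.9% to 61.9%.

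The values on either side of the region's bounds are given as a description. Just before it, codon 58 had 29, 17 and 8 counts in SECIS2 deletion, against 19, 6 and 15 in SECIS2 WT, and 17 and 30 in SECIS1 deletion, against 43, 24 and 20 in SECIS1 WT. Codon 130, the last inside, had 6, 7 and 5 counts in SECIS2 deletion, against 4, 1 and 11 in SECIS2 WT. Codon 131, the first outside, had 3, 6 and 1 in SECIS2 deletion, against 3, 7 and 12 in SECIS2 WT. In the SECIS1 line codons 130 and 131 had 4 to 13 counts per library across both groups. Codons 58, 130 and 131 were thus all far under the upstream mean, and the bounds cut through no peak.

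Ribosomes stood at UGA1 itself at less than the upstream average, and no change there was called for either deletion. UGA1 had 44, 44 and 36 counts in SECIS2 deletion, against 36, 15 and 47 in SECIS2 WT, which are occupancies of 0.340, 0.320 and 0.386 against 0.433, 0.372 and 0.360. In the SECIS1 line it had 35 and 44 counts in the deletion, against 131, 67 and 53 in SECIS1 WT, occupancies of 0.279 and 0.391 against 0.456, 0.418 and 0.439. The libraries of the SECIS2 line overlapped; both SECIS1 deletion libraries lay below all 3 SECIS1 WT libraries.

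In the fit across all codons (edgeR's quasi-likelihood test, Benjamini-Hochberg adjustment over 258 codons), the log2 fold change of UGA1 was -0.16 (SE 0.32, 95% interval -0.84 to 0.52, adjusted p = 0.710) for the SECIS2 deletion. For the SECIS1 deletion it was -0.39 (SE 0.35, 95% interval -1.13 to 0.35, adjusted p = 0.799). The intervals reach -0.84 and -1.13, so equal occupancy is not shown. UGA1 was called for the SECIS2 deletion when codon boundaries were set 1 nucleotide later (-1.09, adjusted p = 0.0286), a setting that takes in the first nucleotide of codon 60. In the SECIS2 line, UGA1 had more of its counts on its second nucleotide (55.8% ± 3.15 in SECIS2 deletion, 54.7% ± 8.86 in SECIS2 WT) than on its first (40.4% ± 1.58 and 34.3% ± 1.64); with 15 to 47 counts a library in this line, the difference was not tested. The SECIS1 line did not share this in every library: the second nucleotide held 37.1% and 63.6% in SECIS1 deletion, against 57.3%, 53.7% and 32.1% in SECIS1 WT.

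UGA1 made up a larger share of the region's counts in the SECIS2 deletion than in its wild type. It was 0.880%, 1.06% and 1.46% in SECIS2 deletion, against 0.503%, 0.507% and 0.541% in SECIS2 WT. In the SECIS1 line the order was the other way, 0.506% and 0.579% in the deletion, against 0.962%, 0.683% and 1.04% in SECIS1 WT. Neither pair of groups overlapped. The library with no group in its title, by its column heading a SECIS1 deletion, had 0.938%, inside the SECIS1 WT range. These shares depend on the region's counts as well as on those of UGA1. The region's density over upstream was 2.39-fold lower in SECIS2 deletion, while UGA1 occupancy overlapped that of SECIS2 WT.

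**Figure D2:**
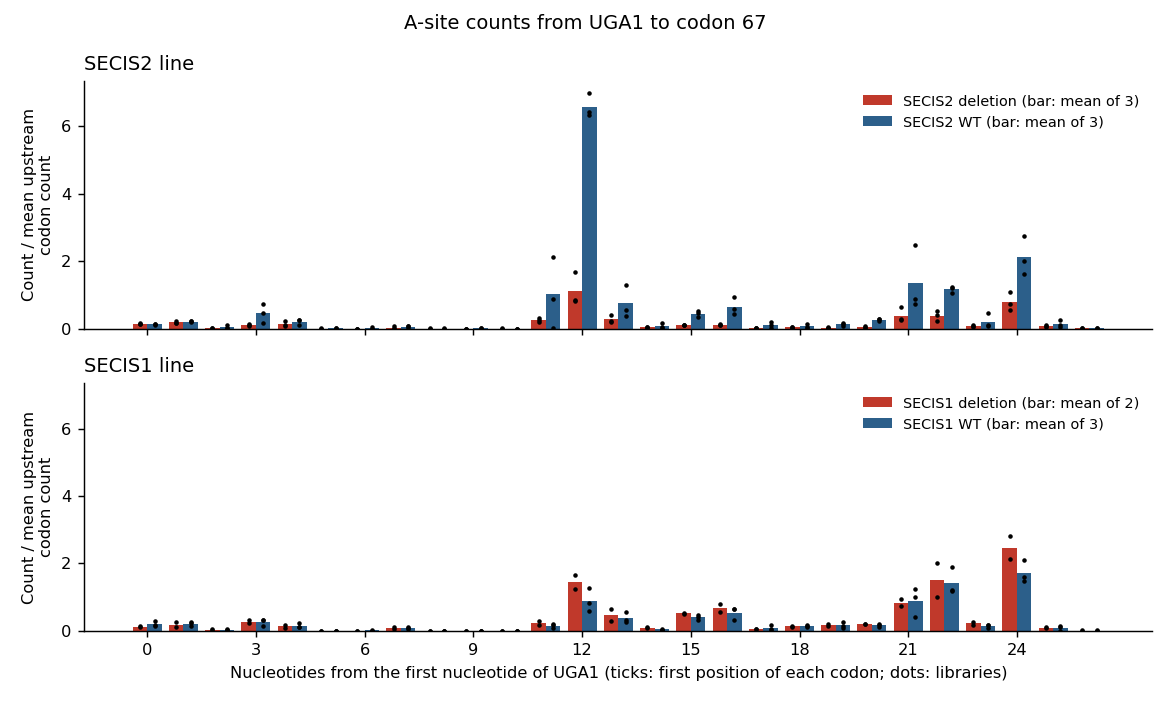
A-site counts per nucleotide from UGA1 to codon 67 divided by the mean upstream codon count, SECIS2 line above and SECIS1 line below, with bars for group means and dots for libraries. The bar 12 nucleotides after the start of UGA1, the first nucleotide of codon 63, is tall in SECIS2 WT and much lower in SECIS2 deletion and in both groups of the SECIS1 line.

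Fewer footprints lay in the region after UGA1 when SECIS2 was deleted. The density of counts in codons 59 to 130 over upstream density was 0.537, 0.420 and 0.367 in the SECIS2 deletion libraries, against 1.20, 1.02 and 0.924 in SECIS2 WT. The groups did not overlap. The means were 0.441 ± 0.0868 and 1.05 ± 0.138 (SD, n = 3 each), a log2 difference of -1.26 or 2.39-fold lower, and it stayed between -1.41 and -1.13 with any 1 library left out. No p is given for this sum, because the region was proposed with results of these data known.

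The region also took a smaller part of all counts in the frame, 23.7%, 18.2% and 15.4% in SECIS2 deletion, against 33.7%, 27.7% and 29.4% in SECIS2 WT. The widest 95% exact binomial interval, 26.8% to 28.5%, was that of SECIS2 WT replicate 2; without molecular identifiers such an interval covers counting error alone. The authors' ratio, which divides depth-scaled footprints by depth-scaled Selenop RNA reads, summed to 0.0435, 0.0314 and 0.0309 over the region in SECIS2 deletion, against 0.0896, 0.0765 and 0.0677 in SECIS2 WT. The same ratio summed over the upstream part was 0.0522 ± 0.00308 in SECIS2 deletion and 0.0486 ± 0.000684 in SECIS2 WT (SD, n = 3 each). The ratio was thus lower after UGA1 without being lower before it. For a level taken alone, bulk liver does not tell fewer translating cells from fewer footprints per cell; density over upstream density is a ratio within each library.

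**Figure D3:**
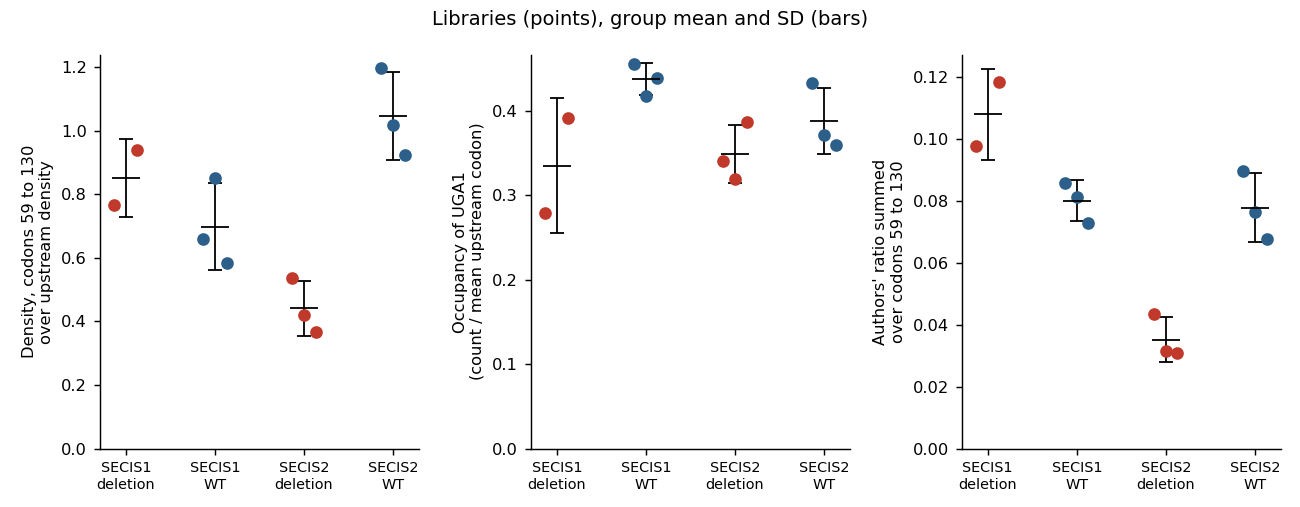
Density of codons 59 to 130 over upstream density, occupancy of UGA1 and the authors' ratio summed over codons 59 to 130, with points for libraries and bars for group mean and SD. SECIS2 deletion lies below SECIS2 WT for the region (0.367 to 0.537 against 0.924 to 1.20) and for the ratio, and overlaps it at UGA1.

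Codon by codon, 49 of the 72 codons passed the filter on low counts and 23 were not tested. For the SECIS2 deletion 34 of the 49 were lower and 0 higher (edgeR adjusted p under 0.05), where 36.8% of all tested codons of the frame were lower and 1.16% higher. The median log2 fold change was -1.40 over the 49 codons and -0.90 over all 258. Counts over the codons that passed are a description: 8 of the 49 passed with a SECIS2 WT library but no SECIS2 deletion library above the filter's threshold. Codon 109 passed with no library of either SECIS2 group above it. Of the 39 codons with a library above the threshold in every group, 27 were lower. Libraries of the groups did not overlap at 32 of the 49 codons, all lower in the deletion, where 37.6% of all tested codons were lower and 2.71% higher without overlap. Of 95 single positions tested, 33 were lower and 0 higher, where 15.5% and 1.11% of all 452 were.

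The count of 34 depended on the scale. With library sizes set by TMM or by DESeq2 size factors, which bring the median of all codons from -0.90 to -0.03 and -0.11, only codons 63, 64, 108 and 123 remained lower than the rest of the frame. Without SECIS2 deletion replicate 2, 22 codons were called, 21 of them among the 34.

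The decrease was present in all 6 blocks of 12 codons, and density fell most in the block that starts with UGA1. That block holds codon 63, at a mean occupancy of 1.43 in SECIS2 deletion and 7.42 in SECIS2 WT. Its rank without codon 63 was not tested. By median log2 fold change of the tested codons it did not rank first, with -1.63, against -1.83 in codons 83 to 94. Density of codons 59 to 70 over upstream was 0.533, 0.323 and 0.333 in SECIS2 deletion, against 1.49, 1.5 and 1.3 in SECIS2 WT, a log2 difference of -1.89. The following blocks had log2 differences of -1.27 (codons 71 to 82), -1.80 (83 to 94), -1.45 (95 to 106), -1.31 (107 to 118) and -0.82 (119 to 130). In every block the groups did not overlap. The last block was 1.03, 0.984 and 0.850 in SECIS2 deletion, against 2.19, 1.74 and 1.25 in SECIS2 WT. Differences between blocks were not tested.

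The shares of the region's counts shifted with it. Codons 59 to 70 held 14.8% ± 1.88 in SECIS2 deletion and 22.9% ± 1.99 in SECIS2 WT, and codons 119 to 130 held 36.6% ± 3.89 in SECIS2 deletion and 27.2% ± 4.13 in SECIS2 WT (SD, n = 3 each). In both blocks the groups did not overlap. Codons 71 to 82 held 42.6% ± 3.10 in SECIS2 deletion and 43.0% ± 4.03 in SECIS2 WT.

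**Figure D4:**
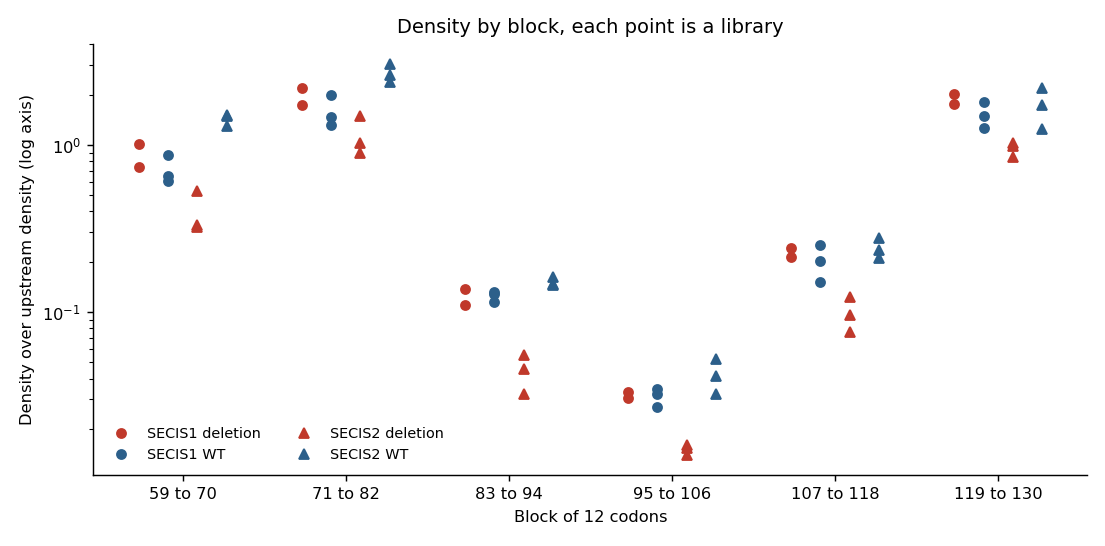
Density over upstream density (log axis) in 6 blocks of 12 codons, each point a library; circles are the SECIS1 line and triangles the SECIS2 line. SECIS2 deletion lies below SECIS2 WT in every block, with log2 differences from -1.89 in codons 59 to 70 to -0.82 in codons 119 to 130, and the groups of the SECIS1 line overlap.

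The first codons after UGA1 did not behave alike. At codon 60, directly after it, the SECIS2 deletion had 46, 38 and 15 counts, against 24, 40 and 97 in SECIS2 WT; the occupancies overlapped and the log2 fold change was -1.31 (SE 0.47, edgeR adjusted p = 0.0378). This call ended without SECIS2 deletion replicate 1 (-1.58), 2 (-1.34) or 3 (-1.07), without SECIS2 WT replicate 2 (-0.97) or 3 (-1.19), and without either SECIS1 deletion library (-1.31 each). Codon 61 had at most 7 counts in SECIS2 deletion and 11 in SECIS2 WT and was not called (-1.22, SE 0.72, adjusted p = 0.178). Codon 62 had 28, 37 and 29 counts in SECIS2 deletion, against 75, 86 and 5 in SECIS2 WT, and was not called (-1.89, SE 0.77, adjusted p = 0.0579).

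Codon 63, 4 codons after UGA1, fell most among the codons of high occupancy. It had 277, 150 and 100 counts in SECIS2 deletion, against 637, 289 and 972 in SECIS2 WT, occupancies of 2.14, 1.09 and 1.07 against 7.66, 7.16 and 7.44. The groups were far apart. The log2 fold change was -2.37 (SE 0.37, edgeR adjusted p = 0.000613), and it was called with each library left out in turn. Most of its counts lay on its first nucleotide, position 341, with 217, 115 and 78 in SECIS2 deletion, against 527, 259 and 914 in SECIS2 WT (log2 fold change -2.56, SE 0.44, edgeR adjusted p = 0.0136 over 452 positions).

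Codon 62 and codon 63 share a boundary that the libraries fill differently. Position 340, the last nucleotide of codon 62, had 27, 37 and 29 counts in SECIS2 deletion, against 74, 86 and 4 in SECIS2 WT. SECIS2 WT replicate 3 was low there and had the most counts at position 341; whether this shifted counts between the codons was not tested. Codon 64 fell as well, with 38, 30 and 23 counts in SECIS2 deletion, against 72, 46 and 205 in SECIS2 WT, and occupancies of 0.294, 0.218 and 0.247 against 0.866, 1.14 and 1.57 (log2 fold change -2.24, SE 0.34, edgeR adjusted p = 0.000613). It was called with each library left out.

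Of the 10 codons of highest occupancy, 8 were lower in the SECIS2 deletion. Beside codon 63 these were codons 66 (-1.68, SE 0.41), 67 (-1.35, SE 0.33), 71 (-1.38, SE 0.34), 73 (-1.49, SE 0.28), 74 (-1.09, SE 0.30), 121 (-1.07, SE 0.29) and 129 (-0.88, SE 0.33), as log2 fold changes with edgeR adjusted p from 0.00211 to 0.0461. Codon 73 had the smallest SE of the region, with occupancies of 1.21, 1.06 and 0.869 in SECIS2 deletion, against 2.63, 3.02 and 3.20 in SECIS2 WT. Codon 121 stood at 2.76, 2.77 and 2.11 in SECIS2 deletion, against 5.81, 5.95 and 4.30 in SECIS2 WT. Groups did not overlap at any of the 8.

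Calls at codons 74 and 129 did not hold with each library left out in turn. Codon 74 was not called without SECIS2 deletion replicate 2 (-0.99, adjusted p = 0.0604). Codon 129 was not called without SECIS2 WT replicate 1 (-0.51) or 2 (-0.96), without SECIS2 deletion replicate 1 (-1.03), 2 (-0.89) or 3 (-0.75), or without either SECIS1 deletion library (-0.88 each). With TMM scaling the log2 fold change of codon 129 was 0.023. Codon 128 was not called, with 118, 94 and 82 counts in SECIS2 deletion, against 106, 59 and 78 in SECIS2 WT (log2 fold change -0.41, SE 0.35, adjusted p = 0.348).

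Codon 120 went against its neighbours. It had 441, 433 and 191 counts in SECIS2 deletion, against 468, 63 and 172 in SECIS2 WT, occupancies of 3.41, 3.14 and 2.05 against 5.63, 1.56 and 1.32. The groups overlapped through SECIS2 WT replicate 1, and the log2 fold change was 0.01 (SE 0.47, edgeR adjusted p = 0.98). Without that library it was 1.0 (edgeR adjusted p = 0.0479). Relative to codon 121 next to it, codon 120 had 1.24, 1.14 and 0.970 times as many counts in SECIS2 deletion, against 0.969, 0.263 and 0.307 times in SECIS2 WT. The lowest deletion library and SECIS2 WT replicate 1 were level. In the SECIS1 line this ratio was 0.287 and 0.291 in the deletion, against 0.577, 0.324 and 0.244 in SECIS1 WT.

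Other large log2 fold changes fell on codons with few counts. Codon 108 had 1, 3 and 1 counts in SECIS2 deletion, against 9, 7 and 20 in SECIS2 WT, and the largest change of the region (-3.28, SE 0.56, edgeR adjusted p = 0.00122), called with each library left out. No SECIS2 deletion library and all 3 SECIS2 WT libraries were above the filter's threshold at this codon, so it was tested mainly through the group where it is high. Codon 96 had 5, 4 and 0 counts in SECIS2 deletion, against 19, 6 and 17 in SECIS2 WT (-2.74, SE 0.64, adjusted p = 0.00722). Codon 92 had 3, 7 and 4 counts in SECIS2 deletion, against 7, 7 and 31 in SECIS2 WT (-2.08, SE 0.49, adjusted p = 0.00732). Codon 123 was better covered, with 14, 23 and 11 counts in SECIS2 deletion, against 44, 24 and 70 in SECIS2 WT (-2.06, SE 0.35, adjusted p = 0.00122). At these 4 codons the groups did not overlap in occupancy, and no single library decided the call. Codon 96, like 108, had no SECIS2 deletion library and 3 SECIS2 WT libraries above the threshold, with 1 in each group of the SECIS1 line, so the filter favours its call. Codon 92 had none in SECIS2 deletion either but all of the libraries in the other groups, and codon 123 had all 3 libraries of each group above it.

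The 4 other codons among the 10 largest changes did not hold as well. Codon 84 (-2.16) was not called without SECIS2 WT replicate 1 (-1.66) or SECIS2 deletion replicate 2 (-2.05), and codon 107 (-1.94) not without SECIS2 WT replicate 2 (-1.19). Codon 93 (-2.31), with 2, 1 and 1 counts in SECIS2 deletion and 8, 1 and 6 in SECIS2 WT, was not called without SECIS2 deletion replicate 1 (-2.63), 2 (-2.06) or 3 (-2.30). Codon 109 (-2.47), with 2, 1 and 0 counts in SECIS2 deletion and 6, 3 and 3 in SECIS2 WT, was not called without SECIS2 WT replicate 1 (-2.06) or 2 (-2.29) or SECIS2 deletion replicate 2 (-2.39) or 3 (-2.07). At codons 84 and 93 no SECIS2 deletion library was above the filter's threshold, against 3 and 1 SECIS2 WT libraries, so the filter favours these calls. Of the 34 lower codons, 20 were called with each library left out in turn.

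**Figure D5:**
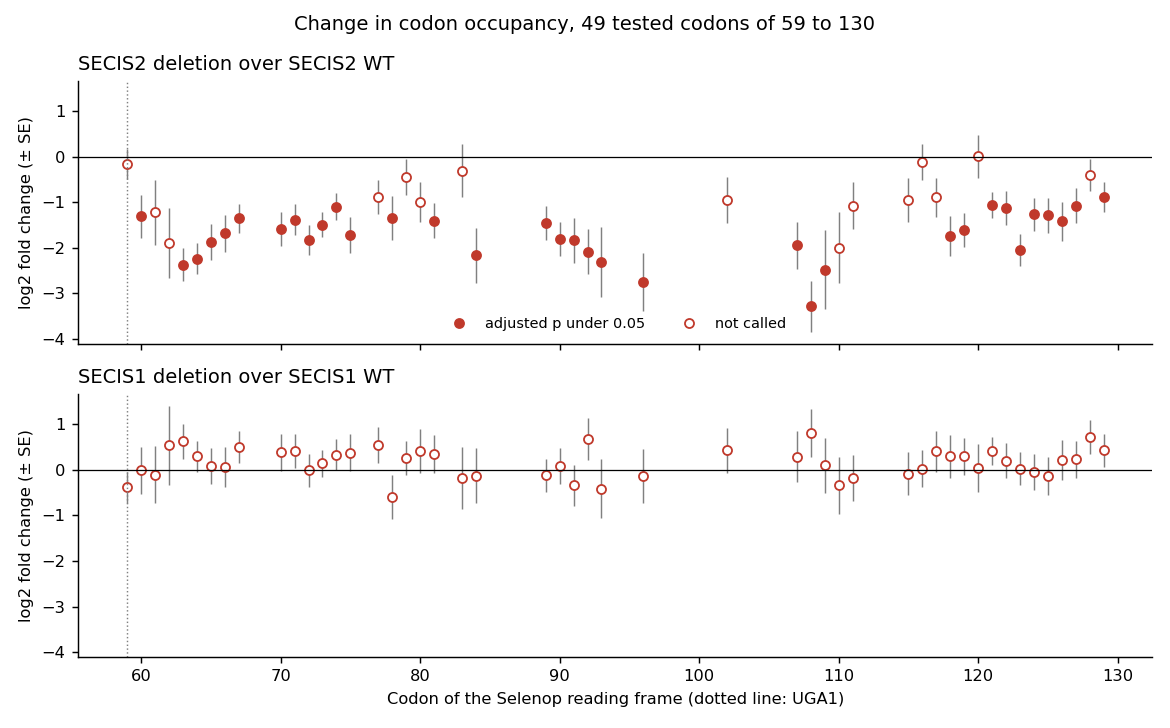
Log2 fold change with SE of the 49 tested codons for the SECIS2 deletion above and the SECIS1 deletion below; filled points have an edgeR adjusted p under 0.05. For SECIS2, 34 codons are filled and all lie below 0, from -0.88 to -3.28, with UGA1 and codon 120 near 0; for SECIS1 none is filled and values lie between -0.59 and 0.80.

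A further fit, chosen after seeing the data, asked how counts were divided within the region, by taking the region's own counts as library size. Codons 63 (-1.17, SE 0.32, edgeR adjusted p = 0.0180) and 108 (-2.11, SE 0.68, adjusted p = 0.0388) were then lower in the SECIS2 deletion and codon 120 higher (1.33, SE 0.42, adjusted p = 0.0351). UGA1 had a log2 fold change of 1.11 (SE 0.38, adjusted p = 0.0506). Codon 74 (0.16), codon 121 (0.19) and codon 129 (0.39) were not called. On this scale a codon is measured against the rest of the region. With upstream counts as library size, the log2 fold change was 0.01 at codon 120 and -0.16 at UGA1. Codon 63 made up 4.40% ± 1.01 of the region's counts in SECIS2 deletion and 9.95% ± 1.15 in SECIS2 WT, and codon 120 made up 8.99% ± 1.33 in SECIS2 deletion and 3.55% ± 2.59 in SECIS2 WT (SD, n = 3 each).

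Deletion of SECIS1 produced no called change in the region. Density of codons 59 to 130 over upstream was 0.765 and 0.939 in the SECIS1 deletion libraries, against 0.658, 0.850 and 0.585 in SECIS1 WT. The groups overlapped through SECIS1 WT replicate 2. The means were 0.852 ± 0.123 (SD, n = 2) and 0.698 ± 0.137 (SD, n = 3), a log2 difference of 0.30 that lay between 0.15 and 0.45 with any 1 of these libraries left out. The authors' ratio summed over the region was 0.0977 and 0.118 in SECIS1 deletion, against 0.0859, 0.0814 and 0.0729 in SECIS1 WT, without overlap and 1.35-fold higher. The library whose title names no group, and whose column heading calls it a SECIS1 deletion, is in none of these values. Its density was 0.539, below all 3 SECIS1 WT libraries, and its ratio 0.0856, inside the SECIS1 WT range. The size of both differences and the lack of overlap of the ratio thus hold for the 2 titled libraries only.

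Of the 49 tested codons 0 were lower and 0 higher in the SECIS1 deletion, where 14.7% of all tested codons of the frame were lower and 0% higher. The smallest edgeR adjusted p was 0.326, at codon 128; 0 codons had an unadjusted p under 0.05, and DESeq2 called 0 as well. The median log2 fold change was 0.20 over the 49 codons and 0.02 over all 258, with values from -0.59 at codon 78 to 0.80 at codon 108. Libraries did not overlap at 7 codons that were higher in the deletion and 2 that were lower, UGA1 and codon 78 (named after its value was seen), against 12.4% and 23.3% of all tested codons. Of the 95 positions, 0 were lower and 0 higher, where 8.63% and 0% of all tested positions were.

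These results do not show that the groups were alike. The SE of a codon ran from 0.30 to 0.86, with 2 deletion libraries, and the test recovered 86.7% of 4-fold and 5.67% of 2-fold changes in counts simulated for the SECIS2 comparison, which has 1 more deletion library. At codon 63 the 95% interval was -0.20 to 1.45 around 0.62 (SE 0.39), with occupancies of 1.63 and 2.40 in SECIS1 deletion, against 0.852, 1.86 and 1.21 in SECIS1 WT. At codon 74 it was -0.37 to 1.04 around 0.33 (SE 0.33). When the library size was the total on the mRNA, codon 128 was higher in the SECIS1 deletion (1.29); that total includes 23 and 44 counts after codon 378 in SECIS1 deletion, against 10797 to 21201 in SECIS1 WT.

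Block by block, the SECIS1 deletion had log2 differences of 0.29, 0.32, -0.02, 0.04, 0.20 and 0.33 from codons 59 to 70 through codons 119 to 130, and the libraries overlapped in every block. Shares of the region's counts were close too, with 17.0% ± 1.37 in SECIS1 deletion (n = 2) and 17.0% ± 0.396 in SECIS1 WT (n = 3) for codons 59 to 70. For codons 119 to 130 they were 37.1% ± 1.82 in SECIS1 deletion and 36.4% ± 1.01 in SECIS1 WT.

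The effects of the deletions differed at 21 of the 49 codons, each with a higher value for the SECIS1 deletion relative to its wild type than for the SECIS2 deletion relative to its own (edgeR contrast of contrasts, adjusted p under 0.05). At 0 codons the difference ran the other way. Over all tested codons these shares were 19.8% and 11.6%. The median difference was 1.64 over the 49 codons and 0.82 over all 258. These results hold for the 2 titled SECIS1 deletion libraries only. No fit was run with the library whose column heading calls it a SECIS1 deletion. Its occupancy at codon 63 was 0.787, below the SECIS1 WT libraries. At codons 64 (1.10) and 108 (0.0347) it lay inside the SECIS1 WT range.

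Codon 108 had a difference of 4.08 (SE 0.78, adjusted p = 0.00225), codon 63 one of 2.99 (SE 0.53, adjusted p = 0.00135) and codon 64 one of 2.53 (SE 0.48, adjusted p = 0.00225). Codon 108 entered the test with 3 SECIS2 WT libraries, 1 SECIS1 deletion library and none of the other groups above the filter's threshold. Codons 63, 64 and 108, and codons 73 (1.64), 92 (2.76) and 123 (2.08), were called with each library left out in turn; the other 15 were not. Without SECIS1 deletion replicate 3 the count of codons was 9, and without SECIS1 deletion replicate 2 it was 12. With TMM scaling 3 codons, 63, 64 and 108, were called. At single-nucleotide resolution 8 of 95 positions differed, against 3.54% of all tested positions: 341, 344, 345, 349, 367, 371, 505 and 510. All 8 were higher; 0 were lower, where 4.65% of all tested positions were.

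UGA1 showed no called difference between the deletions (-0.23, SE 0.47, 95% interval -1.23 to 0.77, edgeR adjusted p = 0.743). Within the region's own counts it did, with a log2 difference of -1.83 (SE 0.57, adjusted p = 0.0224), the fit added after seeing the data. Its share of the region was 1.13% ± 0.298 in SECIS2 deletion and 0.517% ± 0.0207 in SECIS2 WT, but 0.543% ± 0.0514 in SECIS1 deletion and 0.896% ± 0.189 in SECIS1 WT. In that fit neither deletion passed on its own, with 1.11 (adjusted p = 0.0506) for SECIS2 and -0.72 (adjusted p = 0.432) for SECIS1.

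The wild type groups of both lines differed at codon 63 although both are labelled wild type. Occupancy of codon 63 was 0.852, 1.86 and 1.21 in SECIS1 WT, against 7.66, 7.16 and 7.44 in SECIS2 WT, a log2 fold change of -2.51 (SE 0.37, edgeR adjusted p = 0.000962) that was called with each library left out in turn. SECIS2 deletion, at 1.07 to 2.14, lay in the range of the SECIS1 line, at 0.852 to 2.40. The high value of codon 63 was thus a feature of the 3 SECIS2 WT libraries, and the change at this codon in the SECIS2 line is measured against them.

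Codon 108 was the only other codon of the region called between the wild types, lower in SECIS1 WT (-1.87, SE 0.45, edgeR adjusted p = 0.0279), with 12, 5 and 5 counts in SECIS1 WT, against 9, 7 and 20 in SECIS2 WT. All 3 SECIS2 WT libraries and no SECIS1 WT library were above the filter's threshold there, which favours this direction. These 2 of 49 codons lower and 0 higher compare with 3.88% and 0.775% of all tested codons. Libraries did not overlap at 12 tested codons that were lower in SECIS1 WT and 4 that were higher, against 16.7% and 7.75% of all tested codons. Of the positions, 3 were lower and 1 higher, against 1.33% and 0.664% of all tested. The call at codon 108 ended without SECIS1 WT replicate 1 (-1.96) or 2 (-1.75), SECIS2 WT replicate 2 (-1.77) or SECIS1 deletion replicate 2 (-1.87). The number of lower codons was 9 without SECIS2 WT replicate 1, 6 without SECIS2 WT replicate 3, and 1 without any of SECIS1 WT replicate 1 or 2, SECIS2 WT replicate 2 and SECIS1 deletion replicate 2.

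Region density relative to upstream was 1.51-fold lower in SECIS1 WT, with 0.658, 0.850 and 0.585, against 1.20, 1.02 and 0.924 in SECIS2 WT, without overlap. The authors' ratio summed over the region was 0.0801 ± 0.00660 in SECIS1 WT and 0.0779 ± 0.0110 in SECIS2 WT (SD, n = 3 each) and overlapped. The upstream ratio was 0.0764 ± 0.0121 in SECIS1 WT and 0.0486 ± 0.000684 in SECIS2 WT. The wild types therefore differed in the upstream part that serves as the scale, and their region densities differ with the scale used. By block the log2 difference was -1.02, -0.77, -0.27, -0.41, -0.28 and -0.16 from codons 59 to 70 through codons 119 to 130, with no overlap in the first 3 blocks and overlap in the last 3.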

How the data were processed

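The submitters' processing notes name Bowtie, with no version, and the build mm9; the rule for placing the A site is given neither there nor in the file headers. The deposited count table holds A-site counts per nucleotide of the Selenop mRNA for 12 libraries. The deposited ratio table holds, per the file headers, counts scaled to mapped footprints and divided by Selenop RNA reads scaled to mapped RNA reads, and equals the counts times a constant within a library. The library without a group entered no comparison, and the RNA-seq libraries entered only through the ratio.

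Counts were summed per codon and tested with edgeR 4.0.16 (quasi-likelihood, R 4.3.3) in a group-means model over 11 libraries (7 residual degrees of freedom), with upstream counts (codons 7 to 53) as library size. Codons that passed filterByExpr (minimum count 10), 258 of 378, were tested and adjusted together (Benjamini-Hochberg, threshold 0.05); single positions likewise, 452 of them. The frame was taken to end at codon 378, after which 20 consecutive codons stayed below 1% of the upstream mean in wild type. Intervals on shares are exact Clopper-Pearson at 95%.

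Members, lists and tests were chosen with earlier results of these data known. Named codons are 58 to 64, the 10 of highest mean occupancy, and the 10 largest called changes of each comparison, with any called codon that moved against most others. Alternatives were DESeq2 1.42.0, other library sizes and boundaries, no filter, compared groups only, a replicate block and each library left out; the region's own counts as library size were chosen after seeing the data. On simulated counts for 258 codons (60 changed), 86.7% of 4-fold and 5.67% of 2-fold changes were recovered, and 2.99% and 8.11% of calls were wrong.

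No pair of replicates looked like 1 library deposited again (lowest chi-square per degree of freedom 2.38). The replicate numbers come from the labels. Deviations from group means of same-numbered SECIS2 libraries correlated over 258 codons at 0.390, 0.115 and 0.163. Differently numbered ones gave -0.256 to 0.094, but deviations from a group mean cancel out, which pushes these values down. In the SECIS1 line the same-numbered values were -0.05 and -0.01, and 2 deletion libraries give mirror-image deviations. The check therefore cannot settle whether the numbers pair samples, and the main fit included no pairing.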

Additional observations from a re-analysis of the deposited data

Results flagged for a closer look

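The effects of the deletions differed by a test of the difference itself at 21 codons of the region (edgeR contrast of contrasts). The library whose column heading calls it a SECIS1 deletion is not in this contrast. The 10 largest log2 differences, SECIS1 effect minus SECIS2 effect, were 4.08 at codon 108, 2.99 at codon 63, 2.76 at codon 92, 2.61 at codon 96, 2.53 at codon 64, 2.23 at codon 107, 2.09 at codon 75, 2.08 at codon 123, 2.03 at codon 118 and 1.97 at codon 70. Those at codons 108, 63, 92, 64 and 123 were called with each library left out in turn. Codons 63 and 108 were also called between the wild types (SECIS1 WT over SECIS2 WT, -2.51 and -1.87). The wild type values of the lines thus enter the differences at these codons. At codons 92, 96 and 108 no SECIS2 deletion library was above the filter's threshold.

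The calls of the others ended in some fits with a library left out. At codons 96, 107 and 118 this included fits in which the log2 difference was larger than with all libraries. Codon 75 was not called without SECIS1 deletion replicate 2 (2.08), nor was codon 70 (1.63). Codon 96 was not called without SECIS1 WT replicate 1 (2.41) or 2 (2.46), SECIS1 deletion replicate 2 (1.91), or SECIS2 deletion replicate 2 (2.77) or 3 (2.16). Codon 107 was not called without SECIS1 WT replicate 1 (2.16) or 3 (2.04), SECIS1 deletion replicate 2 (2.29) or 3 (2.19), SECIS2 WT replicate 2 (1.48), or SECIS2 deletion replicate 1 (2.13) or 3 (2.03). Codon 118 was not called without SECIS1 WT replicate 3 (1.86), SECIS1 deletion replicate 2 (2.15) or 3 (1.92), SECIS2 WT replicate 2 (1.85), or SECIS2 deletion replicate 2 (2.08) or 3 (1.72).

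For region density over upstream density the log2 effects were 0.30 for the SECIS1 deletion and -1.26 for the SECIS2 deletion. The difference of 1.55 was not tested, because the region was proposed with results of these data known.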

How the results depend on the processing

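Against 34 lower codons for the SECIS2 deletion, TMM and DESeq2 size factors gave 4 each, all counts on the mRNA 3 and the region's own counts 2 (with 1 higher); leaving out 1 library gave 22 to 36 lower and 0 to 1 higher. Against 21 higher codons for the difference between deletions, TMM and DESeq2 size factors gave 3 each, all counts 6, the region's own counts 2 (with 1 lower), single positions 8, and leaving out 1 library 9 to 30. For the SECIS1 deletion, all counts gave 1 higher codon. Against 2 lower codons in SECIS1 WT over SECIS2 WT, boundaries 1 nucleotide earlier and DESeq2 gave 7 each, and DESeq2 size factors, TMM, all counts, the region's own counts, the authors' ratio and only the compared groups gave 1 each; leaving out 1 library gave 1 to 9. There the authors' ratio gave 4 higher codons and single positions 1. The log2 difference of UGA1 occupancy was -0.15 for the SECIS2 deletion (-0.23 to -0.07 with 1 library left out), and -0.69 over codons 58 to 60, -1.05 with boundaries 1 nucleotide later and -0.36 with codons 1 to 58 as the upstream part. For the SECIS1 deletion it was -0.40 (-0.65 to -0.16), and -0.11 over codons 58 to 60 and -0.043 with boundaries 1 nucleotide later. Changes of sign that involved a call were as follows. The region's own counts changed codons 74 (0.16), 121 (0.19) and 129 (0.39) in the SECIS2 deletion. They also changed codons 74 (-0.10) and 121 (-0.048) in the difference. TMM and all counts changed codon 129 in the SECIS2 deletion (0.023 and 0.020). Boundaries 1 nucleotide later changed codon 108 between the wild types (0.54). The cause was not tested beyond the construction of these scales. Of 956 values of single codons under alternatives, 743 kept their side of the threshold and 203 lost the call. A further 2 gained a call, and 8 changed sign with a call in either fit. Changes of sign with no call in either fit are among the 743. UGA1 is such a case for the SECIS2 deletion, at -0.16 in the main fit and 1.11 with the region's own counts. With the replicate block, 37 codons were lower for the SECIS2 deletion, 34 of them those called without it, and 23 differed between the deletions, among them all 21; it ended no call of either comparison in the region. Density of the region kept its direction for both deletions under every alternative tried; between the wild types it was lower in SECIS1 WT over upstream (-0.59) and 0.05 with the authors' ratio. Depth limits codons 82 to 110, which hold 66 to 353 counts per library of the SECIS2 line.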

Other observations

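The library whose title names no group, and whose column heading calls it a SECIS1 deletion, entered no comparison. It had 27317 counts in all, 8126 upstream and 6715 in codons 59 to 130, and 43 after the last covered codon. Region density over upstream density was 0.539 and UGA1 occupancy 0.364 (63 counts). The authors' ratio summed to 0.0856 over the region and 0.104 upstream. Codon 63 stood at 0.787, codon 74 at 4.2, codon 120 at 1.26 and codon 121 at 4.58 times the upstream mean, so codon 121 and not codon 74 was its highest. Spearman's rho with other libraries across the 72 codons was 0.946 and 0.956 for the SECIS1 deletion libraries, 0.924 to 0.949 for SECIS1 WT, 0.894 to 0.930 for SECIS2 deletion and 0.872 to 0.922 for SECIS2 WT.

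The positions named next were chosen after their values were seen. At the level of single nucleotides, the wild types also differed at position 376, the last nucleotide of codon 74, with 5, 7 and 3 counts in SECIS1 WT and 16, 8 and 26 in SECIS2 WT (log2 fold change -2.78, SE 0.54, edgeR adjusted p = 0.0114). Position 501 of codon 116 was higher in SECIS1 WT (3.31, SE 0.79, adjusted p = 0.0401). Neither codon 74 nor codon 116 was called as a whole between the wild types.

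Footprint placement within a codon was not alike in the SECIS2 WT libraries. On the last nucleotide of codon 71, replicate 3 had 507 counts, against 61 in replicate 1 and 37 in replicate 2. On the first nucleotide of codon 121 it had 33 counts, against 175 and 178. Whether this bears on the codon values was not tested beyond the shifts of codon boundaries given above.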
